A study of Mus musculus with 9 samples.

Results

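The interleukin-1 and interleukin-36 family was examined in back skin RNA. Its members were taken by name and not by any measured value, and were the genes Il1a, Il1b, Il1rn, Il18, Il33 and Il1r1 with the interleukin-36 genes. In the deposited table the latter carry older symbols, Il1f6 for Il36a, Il1f8 for Il36b, Il1f9 for Il36g and Il1f5 for Il36rn. All 10 were found, among 29205 genes in the table. The study asked whether Longkui Yinxiao Soup (LYS), an herbal decoction, changes psoriasis-like skin that imiquimod (IMQ), a Toll-like receptor agonist applied as a cream, produces in mice. The mice were male BALB/c, aged 6 to 8 weeks, with shaved and depilated backs, and skin was taken on day 13. The control group received neither agent. The IMQ group received 62.5 mg of 5% IMQ cream on the back daily for 5 days, and the LYS group received the same cream and LYS. The labels give no dose of LYS, and according to the methods of the study the sequenced mice were of its higher dose group. Each group had 3 libraries. The labels do not say whether these were separate mice, so the p-values measure only the spread between these libraries. IMQ cream models an acute inflammation of the skin rather than a chronic disease.

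The family comprises cytokines that act on neighbouring cells through receptors sharing a Toll/IL-1 receptor domain and the adaptor MyD88. IL-1 alpha and IL-1 beta act through IL-1R1, the IL-36 agonists through a receptor of their own, and IL-18 and IL-33 through further receptors, with the receptor antagonists IL-1Ra and IL-36Ra competing for the first pair of receptors. In skin, keratinocytes are a known source of IL-1 alpha, IL-36 and IL-33, neutrophils and macrophages are known sources of IL-1 beta, and loss of IL-36Ra in people causes a pustular form of psoriasis.

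The interleukin-36 genes and Il1rn lay together on chromosome 2 of GRCm38, within 198334 bases from 24153161 to 24351494, all on the plus strand and in the order Il1f8, Il1f9, Il1f6, Il1f5 and Il1rn. Il1a (129299610 to 129309972) and Il1b (129364570 to 129371139) lay on the minus strand of the same chromosome, in a stretch of 71530 bases. The others were spread over chromosome 9 (Il18, 50554827 to 50581840), chromosome 19 (Il33, 29925114 to 29960718) and chromosome 1 (Il1r1, 40225080 to 40317257). Their identifiers in the table were ENSMUSG00000027399 (Il1a), ENSMUSG00000027398 (Il1b), ENSMUSG00000026981 (Il1rn), ENSMUSG00000026983 (Il1f5), ENSMUSG00000039217 (Il18), ENSMUSG00000024810 (Il33) and ENSMUSG00000026072 (Il1r1), and those of the IL-36 agonists stand with their values. Because most members rose together but to different degrees, the 250 bases before the transcription start are shown for the genes of both chromosome 2 clusters that had an entry in the RefSeq promoter table (GRCm38.p6), 5′ to 3′ and the first entry of each gene. The table held 14 entries for 9 of the 10 members, and none for Il1f6. Capitals mark matches on either strand to an NF-kB pattern (GGG and CC with 5 free bases between them) or to the AP-1 letters TGANTCA, which do not overlap each other here.
Il1a, chr2:129309973-129310222, minus strand: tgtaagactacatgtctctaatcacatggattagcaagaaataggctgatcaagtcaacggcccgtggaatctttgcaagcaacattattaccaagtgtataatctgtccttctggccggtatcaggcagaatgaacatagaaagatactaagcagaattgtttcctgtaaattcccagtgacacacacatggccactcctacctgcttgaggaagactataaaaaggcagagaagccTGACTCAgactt
Il1b, chr2:129371140-129371389, minus strand: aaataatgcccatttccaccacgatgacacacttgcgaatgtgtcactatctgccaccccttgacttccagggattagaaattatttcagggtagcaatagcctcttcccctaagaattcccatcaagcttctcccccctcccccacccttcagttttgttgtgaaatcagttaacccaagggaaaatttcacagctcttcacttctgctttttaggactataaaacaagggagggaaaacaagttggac
Il1rn, chr2:24336610-24336859, plus strand: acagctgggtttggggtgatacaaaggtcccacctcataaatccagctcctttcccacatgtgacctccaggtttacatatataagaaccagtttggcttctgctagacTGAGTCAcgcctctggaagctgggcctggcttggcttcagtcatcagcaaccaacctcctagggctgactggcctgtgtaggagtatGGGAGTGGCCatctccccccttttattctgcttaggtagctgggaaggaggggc
Il1f8, chr2:24152922-24153171, plus strand: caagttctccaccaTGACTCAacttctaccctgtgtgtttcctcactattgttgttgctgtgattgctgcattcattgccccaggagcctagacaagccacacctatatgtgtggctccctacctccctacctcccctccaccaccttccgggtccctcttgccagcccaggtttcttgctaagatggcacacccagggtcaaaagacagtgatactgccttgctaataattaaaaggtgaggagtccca
Il1f9, chr2:24186226-24186475, plus strand: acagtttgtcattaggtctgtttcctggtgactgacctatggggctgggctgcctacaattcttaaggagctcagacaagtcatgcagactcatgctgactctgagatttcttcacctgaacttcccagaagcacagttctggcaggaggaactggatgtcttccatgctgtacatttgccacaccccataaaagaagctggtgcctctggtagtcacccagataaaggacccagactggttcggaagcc
Il1f5, chr2:24276704-24276953, plus strand: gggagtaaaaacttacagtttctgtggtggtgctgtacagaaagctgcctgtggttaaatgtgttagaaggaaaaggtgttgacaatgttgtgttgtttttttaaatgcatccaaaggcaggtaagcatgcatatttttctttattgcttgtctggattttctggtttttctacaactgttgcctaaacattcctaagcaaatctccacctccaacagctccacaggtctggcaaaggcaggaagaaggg
The AP-1 letters were found before Il1a (position -12, counted from the start), Il1rn (-141) and Il1f8 (-236), and in 6.7% of the 32851 promoters of the table. The NF-kB pattern stood at -54 of Il1rn in the entry shown, and 45.8% of all promoters held them. Over all entries, 3 of the 9 members held the NF-kB pattern and 3 the AP-1 letters. The TATA box letters TATAAA stood at -32 of Il1a and -31 of Il1b, and were in 12.4% of all promoters. None of these 3 patterns was found in the windows of Il1f9 and Il1f5 shown. The windows of Il1a, Il1b and Il1f5 held the C/EBP letters TTNNGNAA (36.8% of promoters), and that of Il1f9 held the STAT letters TTCNNNGAA (7.0%).

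Summed counts per library were 17149506 to 19609878 in the control group, 16915191 to 17988104 in the IMQ group and 14658645 to 16743869 in the LYS group. Levels are given as CPM after TMM scaling when libraries are compared, and as the deposited FPKM, which divides by gene length, when genes are compared. The skin label was checked against markers. Genes of basal keratinocytes (Krt5, Krt14 and 3 others) summed to 1889 to 2823 CPM in the control group, 10467 to 12322 in the IMQ group and 7087 to 12706 in the LYS group, and none of these markers was without counts. Each fit of edgeR held the 6 libraries of the groups compared, and calls needed a Benjamini-Hochberg adjusted p under 0.05 together with a log2 fold change above 0.58 in size. Of the marker lists, those called mainly higher in the IMQ group than in the control group were basal keratinocyte (4 of 5 higher, 1 lower), suprabasal keratinocyte (4 of 5 higher, 1 lower), neutrophil (5 of 6 tested higher, 1 lower), T cell (4 of 7 higher) and dendritic and Langerhans cell (2 of 5 higher). Those called lower were mast cell, fibroblast, hair follicle, sebaceous gland, skeletal muscle and adipocyte (5 of 5 each), endothelium (4 of 5) and macrophage (2 of 5). Against the control group, LYS libraries had called genes in the lists of basal keratinocyte (4 higher, 1 lower), suprabasal keratinocyte (3 higher, 1 lower), neutrophil (5 higher, 1 lower), T cell (5 higher), dendritic cell (1 higher), fibroblast (2 lower), hair follicle (5 lower), sebaceous gland (4 lower), skeletal muscle (3 lower) and adipocyte (5 lower). Of all genes tested, 24.1% were called higher and 26.9% lower in the IMQ group against the control group. For the LYS group against the control group these shares were 15.1% and 12.9%. Counts of 1 or 2 in lists of 5 genes are too small to set apart from such shares. In bulk RNA, fewer cells of a type and less RNA per cell cannot be told apart. Among the treated libraries, IMQ 1 and LYS 1 lay between the other IMQ and the other LYS libraries in several of these sums, for example 24226 and 16171 CPM for suprabasal keratinocytes, against 35664 to 39298 in IMQ 2 and IMQ 3 and 8425 to 9306 in LYS 2 and LYS 3. Where leaving out either of these libraries changed the call of a member or named pathway gene between the LYS and IMQ groups, the value without it is given. Both were singled out because they lay between the groups, so leaving out either tends to widen the difference. Without LYS 1, edgeR called 2370 genes of the whole table higher and 1892 lower between these groups. Such values are given as description only.

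Among the 10 members, IMQ skin had more transcript of every ligand and antagonist than control skin, and less of the receptor Il1r1. By edgeR's test 9 of the 10 members were called higher and 1 lower. Among the 15976 genes tested 51.0% were called, 24.1% higher and 26.9% lower. The median log2 fold change of the members was 3.96, against -0.06 for all genes tested. For all 10 members the libraries of both groups were fully separated in CPM, as they were for 70.0% of all genes tested. The dot plot of CPM by library shows the separation for each gene.

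**Figure D1:**
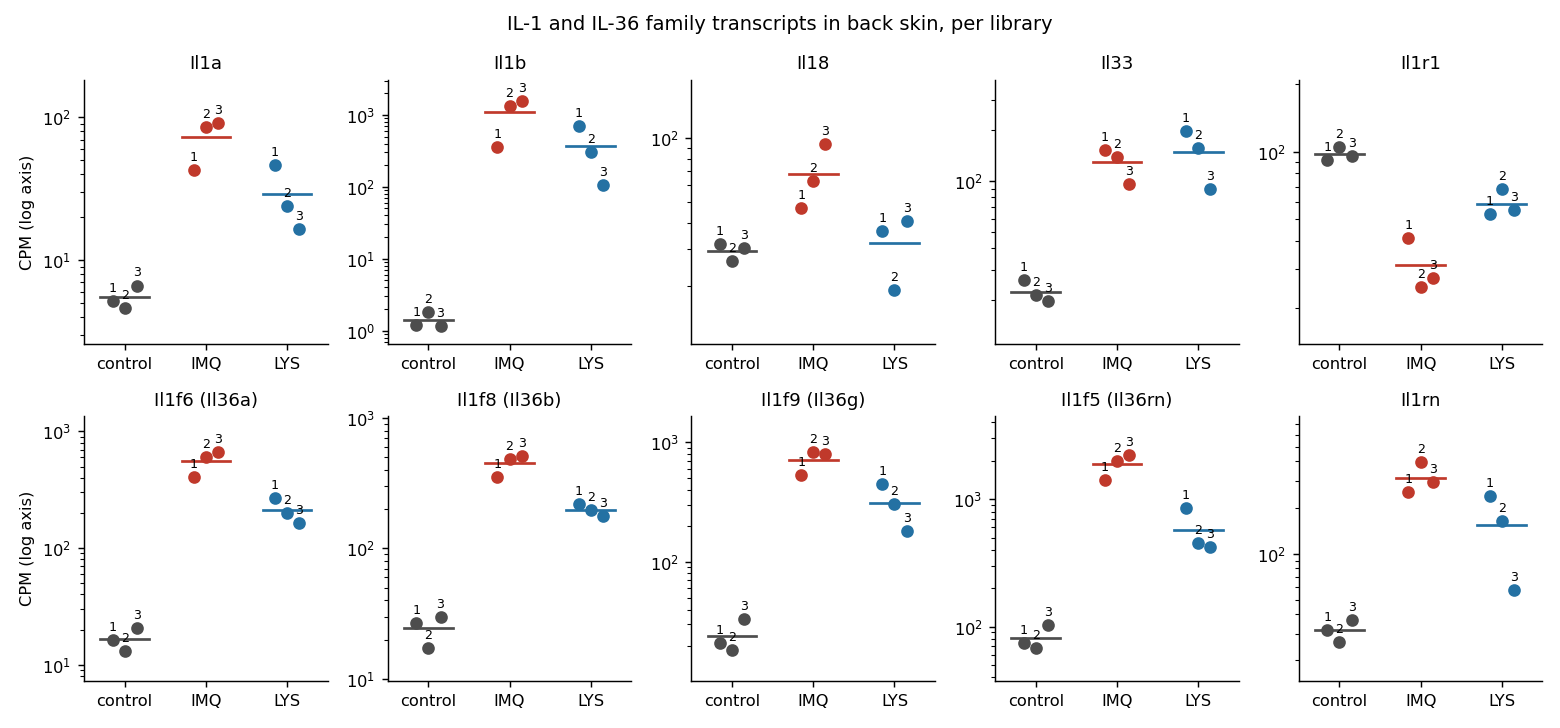
CPM of the 10 family members in every library (log axis, 1 panel per gene, numbered points for libraries 1 to 3, lines for group means) in the control, IMQ and LYS groups. IMQ points lie above all control points except for Il1r1, where they lie below, and for Il1b the IMQ 1 library (355 CPM) lies below LYS 1 (707 CPM).

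The IL-36 agonists Il1f6, Il1f8 and Il1f9 encode secreted cytokines of the epidermis. Il1f6 (ENSMUSG00000026984, chromosome 2, 24215418 to 24225702) had 16.2, 13.1 and 20.6 CPM in control libraries 1 to 3 and 407, 598 and 672 CPM in the IMQ libraries. All IMQ libraries were thus far above all controls, with a fold change of 33.4 (log2 5.06 ± 0.27 SE, edgeR adjusted p = 1.1e-05). Il1f9 (ENSMUSG00000044103, chromosome 2, 24186476 to 24193568) had 21.0, 18.2 and 33.4 CPM in the controls and 527, 818 and 791 CPM after IMQ, a 29.2-fold rise (log2 4.87 ± 0.31 SE, edgeR adjusted p = 1.8e-05). Il1f8 (ENSMUSG00000026985, chromosome 2, 24153161 to 24160519) had 26.7, 17.4 and 29.8 CPM and then 354, 486 and 513 CPM, an 18.2-fold rise (log2 4.19 ± 0.26 SE, edgeR adjusted p = 1.7e-05). In each of these genes IMQ 1 was the lowest IMQ library and control 2 the lowest control library.

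Il1b, which encodes the secreted IL-1 beta precursor, changed by the largest factor among the members. It had 1.21, 1.85 and 1.17 CPM in the control libraries (24 to 40 counts) and 355, 1343 and 1539.8 CPM in the IMQ libraries. IMQ 1 was well below IMQ 2 and IMQ 3 but still far above every control. The fold change was 755 (log2 9.56 ± 0.69 SE, edgeR adjusted p = 3.0e-05). Il1a, which encodes the alarmin IL-1 alpha, had 5.17, 4.62 and 6.62 CPM in the controls and 42.9, 85.4 and 91.9 CPM after IMQ, so that Il1b was below Il1a in control skin and above it in IMQ skin. Il1a rose 13.3-fold (log2 3.73 ± 0.31 SE, edgeR adjusted p = 4.9e-05). As FPKM, Il1b was 0.242, 0.414 and 0.183 times Il1a in the control libraries and 8.56, 16.3 and 17.3 times in the IMQ libraries. Il1a shares 222 exonic bases with Gm14023, and Il1b 25 exonic bases with Il1bos, both annotated on the opposite strand. The strand setting of the counting is not given in the sources used here, so reads over these shared bases cannot be told apart. Il18 (with Bco2 and Tex12) and Il1r1 (with Gm38070) overlap other genes without shared exonic bases.

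Il33 and Il18 moved less. Il33, whose product is a nuclear alarmin of barrier cells, had 25.9, 21.2 and 19.6 CPM in the control libraries and 152, 139 and 96.4 CPM in the IMQ libraries. It rose 5.76-fold (log2 2.53 ± 0.20 SE, edgeR adjusted p = 3.8e-05), and IMQ 3 was its lowest IMQ library. Il18, whose product needs cleavage by caspase-1, had 31.7, 26.2 and 30.2 CPM and then 46.6, 62.6 and 93.9 CPM. Its 2.29-fold rise was the smallest among the 9 members called higher (log2 1.19 ± 0.24 SE, edgeR adjusted p = 0.0031).

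Both antagonists rose as well. Il1f5, which encodes the IL-36 receptor antagonist, had 74.0, 67.4 and 103 CPM in the controls and 1406, 1989 and 2231 CPM after IMQ, the highest CPM of the family. Its fold change of 22.8 (log2 4.51 ± 0.28 SE, edgeR adjusted p = 1.7e-05) lay within the range of the IL-36 agonists. Il1rn, which encodes the IL-1 receptor antagonist, had 31.5, 26.5 and 36.9 CPM and then 252, 394 and 293 CPM. It rose 9.82-fold (log2 3.30 ± 0.21 SE, edgeR adjusted p = 1.9e-05). Il1rn has 6 annotated transcripts, among which are secreted and intracellular forms, and counts per gene do not separate them.

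Il1r1, the signalling receptor for IL-1, was the only member that fell. It had 92.0, 105 and 95.5 CPM in the control libraries and 41.4, 24.9 and 27.3 CPM in the IMQ libraries. Every IMQ library was below every control, 3.13-fold on average (log2 -1.64 ± 0.20 SE, edgeR adjusted p = 0.00027). Markers of fibroblasts, a cell type that expresses Il1r1, moved with it. Their sum was 8284 to 10459.8 CPM in the control group, 1393 to 4146 in the IMQ group and 3586 to 6990.3 in the LYS group, with 5 of 5 genes called lower after IMQ and none without counts in any group. Those of endothelium summed to 344 to 485, 149 to 304 and 293 to 550.2 CPM. Their part in the change of Il1r1 was not tested.

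The agonist and antagonist transcripts were set against each other within each library, as ratios of FPKM and without a test. Il1rn relative to the sum of Il1a and Il1b was 1.75, 1.45 and 1.68 in the control libraries and 0.219, 0.0952 and 0.0621 in the IMQ libraries. The antagonist transcript was thus above the agonist sum in every control library and below it in every IMQ library. On the IL-36 side, Il1f5 relative to the sum of Il1f6, Il1f8 and Il1f9 was 0.311, 0.374 and 0.337 in the control libraries and 0.292, 0.281 and 0.299 in the IMQ libraries. This ratio moved little, from a mean of 0.340 ± 0.0317 to 0.291 ± 0.00867 (SD, n = 3 libraries each), although the groups did not overlap. The agonist sums themselves went from 44.3 to 81.5 FPKM in the control group to 981 to 1342 FPKM in the IMQ group for IL-36, and from 3.65 to 4.75 FPKM to 190.1 to 689 FPKM for IL-1.

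**Figure D2:**
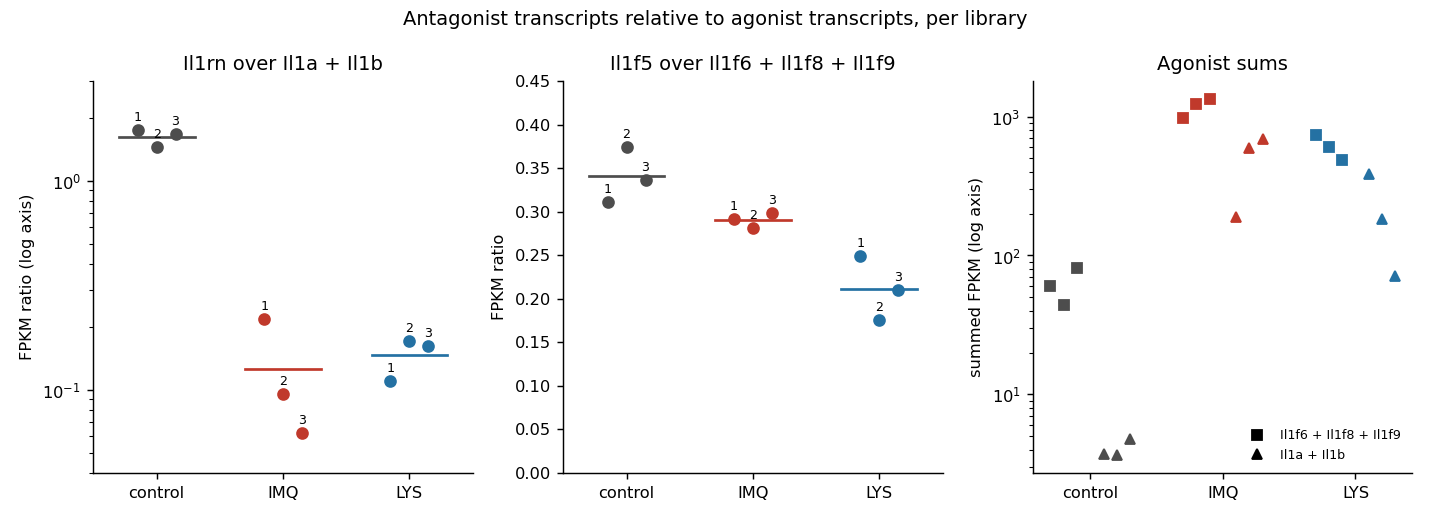
FPKM ratio of Il1rn to Il1a plus Il1b (left, log axis), FPKM ratio of Il1f5 to Il1f6 plus Il1f8 plus Il1f9 (middle) and the agonist sums in FPKM (right, log axis), with 1 point per library and, for the ratios, lines for group means. The Il1rn ratio is 1.45 to 1.75 in the control libraries and 0.0621 to 0.219 in the IMQ and LYS libraries, while the Il1f5 ratio stays between 0.175 and 0.374.

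In the LYS group, which had the same IMQ cream, 8 of the 10 members were below the IMQ group mean, and Il33 and Il1r1 were above it. None was called by edgeR in the fit of these 6 libraries, as for 0% of the 15460 genes tested, where no adjusted p was below 0.0591. By unadjusted p under 0.05, 6 members were lower and 1 higher, against 15.9% and 19.3% of all genes tested. When edgeR was fitted to the 9 libraries jointly, 6 members were called lower and 1 higher, against 8.62% and 9.93% of all genes. DESeq2 on the 6 libraries also called 6 lower and 1 higher, against 9.49% and 13.3%. In both of these fits the members called lower were Il1f6, Il1f8, Il1f9, Il1f5, Il1a and Il18, and the member called higher was Il1r1. The members' median log2 fold change was -1.13, against 0.04 for all genes, and 7 members had fully separated groups, as did 38.9% of all genes. The comparison shares the IMQ libraries with the comparison before, so that a chance high IMQ value would enter both with opposite sign, and the values are therefore set side by side only.

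The IL-36 agonists were lower in every LYS library than in every IMQ library. Il1f6 had 269, 199.5 and 164 CPM in LYS 1 to LYS 3, against 407 to 672 CPM in the IMQ group. On the log2 scale it differed by -1.34 ± 0.25 SE (edgeR adjusted p = 0.059, and 0.021 with all 9 libraries). Il1f8 had 219.8, 196 and 178 CPM, against 354 to 513 CPM after IMQ alone, a log2 difference of -1.12 ± 0.18 SE (edgeR adjusted p = 0.059, and 0.021 with all 9 libraries). LYS 1 was the highest LYS library and IMQ 1 the lowest IMQ library in both genes. Il1f9 had 449, 304 and 182 CPM, with LYS 1 just below IMQ 1 (527 CPM), and a log2 difference of -1.13 ± 0.33 SE (edgeR adjusted p = 0.073, and 0.039 with all 9 libraries). Without LYS 1 edgeR called Il1f6, Il1f8 and Il1f9 lower (adjusted p = 0.010, 0.011 and 0.016), and without IMQ 1 Il1f6 and Il1f8 (adjusted p = 0.041 each). Leaving out any other library called none of them. As LYS 1 and IMQ 1 lay nearest the other group, leaving them out widens the difference, and these calls are no separate evidence of it.

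The antagonist Il1f5 differed from the IMQ group by more than the agonists did in mean value. It had 847, 449 and 418 CPM in the LYS libraries, against 1406 to 2231 CPM in the IMQ libraries. On the log2 scale it differed by -1.66 ± 0.33 SE (edgeR adjusted p = 0.059, and 0.021 with all 9 libraries), with adjusted p = 0.0073 without LYS 1 and 0.041 without IMQ 1. The ratio of Il1f5 to the IL-36 agonists was 0.249, 0.175 and 0.210 in the LYS libraries, a mean of 0.211 ± 0.0369 (SD, n = 3), below every IMQ library and every control library. This is an FPKM ratio from chosen genes and was not tested. Il1rn had 239, 163 and 57.7 CPM, with LYS 1 close to IMQ 1 (252 CPM), and its log2 difference was -0.97 ± 0.46 SE (edgeR adjusted p = 0.17, and 0.049 without LYS 1). Il1rn relative to Il1a plus Il1b was 0.110, 0.170 and 0.161, within the range of the IMQ libraries.

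Il1b and Il1a of the LYS and IMQ groups overlapped. Il1b had 707, 307 and 107 CPM in the LYS libraries, where LYS 1 was above IMQ 1 (355 CPM) and LYS 2 and LYS 3 were below every IMQ library. On the log2 scale it differed by -1.48 ± 0.74 SE (edgeR adjusted p = 0.20), and it was not called in any setting (-2.30 with adjusted p = 0.054 without LYS 1, and -1.91 with adjusted p = 0.095 without IMQ 1). Il1a had 46.3, 23.8 and 16.5 CPM, with LYS 1 slightly above IMQ 1 (42.9 CPM). The log2 difference of Il1a was -1.29 ± 0.42 SE (edgeR adjusted p = 0.085), with adjusted p = 0.016 without LYS 1. Il18 had 36.4, 19.3 and 40.6 CPM, all below the IMQ libraries, differing on the log2 scale by -1.01 ± 0.35 SE (edgeR adjusted p = 0.093).

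Il33 and Il1r1 did not share the lower values. Il33 had 198, 157 and 89.2 CPM in the LYS libraries, overlapping the 96.4 to 152 CPM of the IMQ libraries, and on the log2 scale it differed by 0.26 ± 0.30 SE (edgeR adjusted p = 0.56). Il1r1 had 52.8, 68.2 and 55.1 CPM, all above the IMQ libraries (24.9 to 41.4 CPM) and all below the control libraries. On the log2 scale it differed by 0.97 ± 0.22 SE (edgeR adjusted p = 0.059, and 0.022 with all 9 libraries), and edgeR called it without LYS 1 (adjusted p = 0.022) and without IMQ 1 (adjusted p = 0.041). The plot of log2 fold changes shows all members in each comparison.

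**Figure D3:**
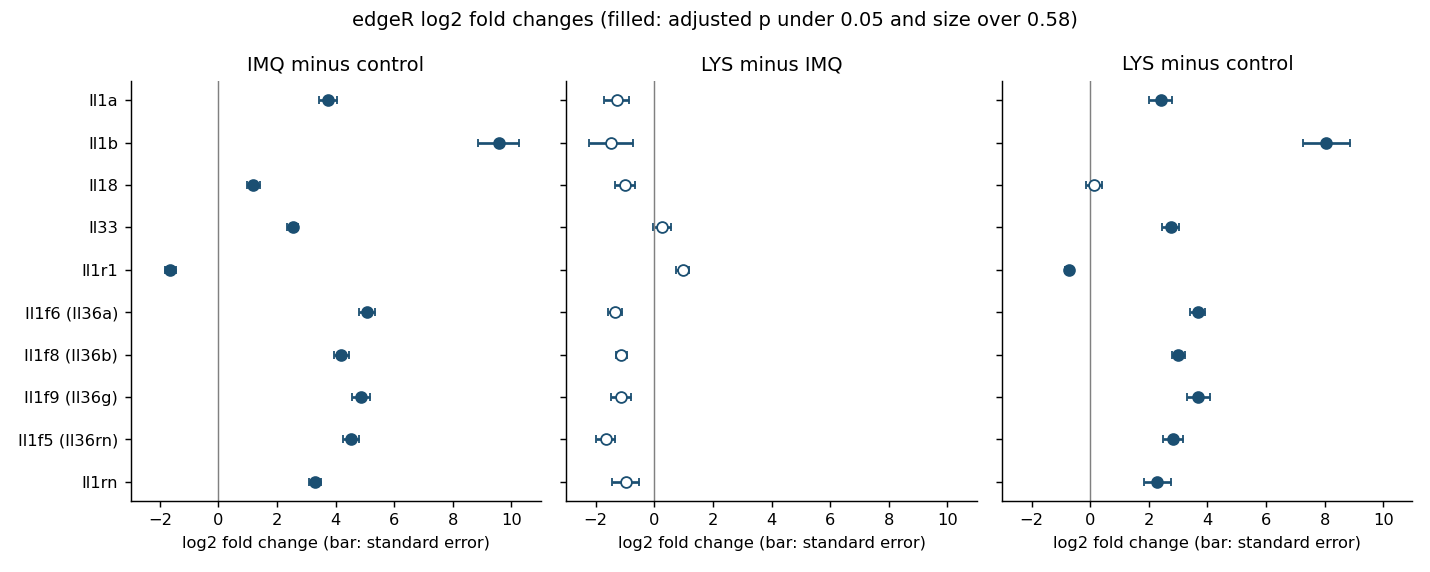
edgeR log2 fold changes of the 10 members (points, bars for standard errors) for IMQ minus control, LYS minus IMQ and LYS minus control, with filled points for genes called at an adjusted p under 0.05 and a size over 0.58. All points are filled in the first panel (-1.64 to 9.56), none in the second (-1.66 to 0.97) and all but Il18 (0.13) in the third.

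Markers of several cell types differed between the IMQ and LYS groups beside these genes. The suprabasal keratinocyte sum (Krt1, Krt10 and 3 others) was 24226 to 39298 CPM in the IMQ group and 8425 to 16171 in the LYS group. In mean value 5 of 5 genes were lower. By edgeR on 6 libraries 0 were called, as for all genes tested. With all 9 libraries 4 were called lower (8.62% of all genes), and 4 by DESeq2 (9.49% of all genes). The neutrophil sum was 38.5 to 88.6 CPM in the control group, 21099.7 to 28663 in the IMQ group and 5824 to 17307 in the LYS group, almost all of it S100a8 and S100a9, which keratinocytes also express. Without that pair the neutrophil sums were 24.7 to 28.7, 172 to 454 and 139.6 to 338 CPM. Of the defining neutrophil markers, 5 of which are named here after their values were seen, Ly6g had no counts in control 1 and control 2 and 0.584 CPM on average in the IMQ group. Mpo, an enzyme of early granules, was 23.2-fold lower in the IMQ group than in the control group, while Csf3r and Cxcr2, receptors of mature neutrophils, were 5.29-fold and 27.4-fold higher. Csf3r went the other way from the sum in the LYS group, with a mean of 166.5 CPM against 91.7 CPM in the IMQ group (edgeR adjusted p = 0.077). Retnlg was lower in the LYS group, with 7.51 to 17.1 CPM against 18.8 to 214 CPM in the IMQ group. The mean of Cxcr2 was 67.8 CPM against 111 CPM. Of 5 neutrophil markers tested between these groups, 4 had a lower log2 fold change and 1 a higher one. Other lists had higher sums in every LYS library than in every IMQ library. Macrophage markers summed to 753 to 1057, 419 to 625 and 741 to 1822 CPM in the control, IMQ and LYS groups, T cell markers to 8.96 to 11.9, 13.1 to 25.0 and 30.3 to 39.6 CPM, and mast cell markers to 181 to 294, 69.4 to 104 and 139 to 256 CPM. Their part in the values of Il1b, Il1a and the IL-36 genes was not tested.

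Compared with control skin, LYS skin still had more of most family transcripts. Here 8 members were called higher and 1 lower by edgeR, against 15.1% and 12.9% of the 16003 genes tested (28.0% in all), and 9 of 10 did not overlap, against 50.3% of all genes. Il1b was 266-fold higher (log2 8.06 ± 0.81 SE, edgeR adjusted p = 8.0e-04), with 107 to 707 CPM against 1.17 to 1.85 CPM, and its log2 fold change was 7.20 without LYS 1. The IL-36 agonists were 8.06-fold to 12.9-fold higher (Il1f8 and Il1f9), and Il1f6 12.8-fold higher (edgeR adjusted p = 2.5e-04 for Il1f6, 3.0e-04 for Il1f8 and 0.0010 for Il1f9). Il1f5 was 7.05-fold, Il33 6.69-fold, Il1a 5.30-fold and Il1rn 4.89-fold higher (edgeR adjusted p = 0.0014, 0.0011, 0.0044 and 0.010). The lowest LYS library was above the highest control library in each of these genes, most narrowly in Il1rn, with 57.7 against 36.9 CPM. Il1r1 was lower than in the control group by 1.65-fold (log2 -0.73 ± 0.14 SE, edgeR adjusted p = 0.0081). For Il18 the LYS libraries (19.3 to 40.6 CPM) lay on both sides of the controls (26.2 to 31.7 CPM), differing on the log2 scale by 0.13 ± 0.27 SE (edgeR adjusted p = 0.73). The medians were 2.78 for the members and -0.01 for all genes. The comparison shares its libraries with those above.

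Set in order of level per length, the family changed its composition with IMQ. In control skin Il18 had the highest mean FPKM (32.8 ± 4.05, SD, n = 3), followed by Il1f8 (23.4), Il1f6 (21.7), Il1f5 (20.9), Il1r1 (17.6) and Il1f9 (17.0), each overlapping the next. Below them came Il33 (8.85), Il1rn (6.59), Il1a (3.20) and Il1b (0.842), each without overlap with the next. In IMQ skin Il1f6 (524 ± 96.8 FPKM), Il1b (459 ± 255), Il1f9 (358), Il1f5 (346) and Il1f8 (307) stood highest, each overlapping the next, and all were above Il18 (54.3) without overlap. Il1rn (46.9), Il33 (37.7) and Il1a (30.5) followed Il18 with overlaps, and Il1r1 (4.17) came last without overlap. In LYS skin the upper group was Il1f6 (247), Il1b (198), Il1f9 (194), Il1f8 (169) and Il1f5 (131), with overlaps between neighbours, and Il33 (52.9) led the rest, ahead of Il18 (32.5), Il1rn (28.3), Il1a (14.9) and Il1r1 (9.65). Thus Il1b moved from the last place in control skin to the second mean in both treated groups, though its place among the first 5 was not separated from its neighbours.

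Within the family the profiles of Il1f6 and Il1f9 over the 9 libraries were the closest, with a root mean square difference of 0.185 in log2(CPM + 1) centred on each gene. Il1a and Il1rn were 0.323 apart and Il1f5 and Il1f8 0.334, while Il1b was 1.76 from its nearest member, Il1f6. Over 14754 other genes of at least 1 CPM, those most like Il1f6 were Gsdmc (0.120), a gasdermin, Ptpn5 (0.152) and Casp14 (0.159), a caspase of the cornified layer. Those most like Il1b were Cxcl2 (0.296), a chemokine for neutrophils, Serpinb3a (0.605) and Lce3a (0.639), a late cornified envelope gene. Il1rn was most like Tgm5 (0.149), an epidermal transglutaminase, Hephl1 (0.162) and Oit1 (0.176), and Il33 most like Duox1 (0.235), an oxidase, Cyp7b1 (0.294) and Mmp13 (0.297), a collagenase. These distances describe 9 libraries in 3 groups, and any gene with a large difference between the groups can be near.

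The genes through which the family acts were then counted, 60 genes in 4 lists. In IMQ skin against control skin 31 were called higher and 3 lower, where 24.1% and 26.9% of all genes tested were. Not all of the 60 could be tested there, with 12 of 15 processing genes and 13 of 16 response genes tested. Some response genes could be tested only through the IMQ libraries, as described with that list. Of the 9 receptors and binding proteins, 5 were called higher and 1 lower, with a median log2 fold change of 1.12. The accessory chain Il18rap, needed for IL-18 signalling, had 2.56, 2.36 and 3.21 CPM in the controls and 21.2, 26.6 and 25.1 CPM after IMQ (log2 3.15 ± 0.19 SE, edgeR adjusted p = 1.6e-05), and its partner Il18r1 rose by 1.43 on the log2 scale (edgeR adjusted p = 0.0042). Il1rap, the chain shared by the IL-1, IL-33 and IL-36 receptors, had 24.3, 25.2 and 28.0 CPM and then 75.8, 90.9 and 85.8 CPM (log2 1.69 ± 0.12 SE, edgeR adjusted p = 2.6e-05). The IL-36 receptor gene Il1rl2 rose by 1.12 and the decoy receptor Il1r2 by 1.37 on the log2 scale (edgeR adjusted p = 9.5e-05 and 0.0063). Il1rl1, which encodes the IL-33 receptor ST2, fell from 6.23 to 9.08 CPM to 2.01 to 4.56 CPM (log2 -1.47 ± 0.35 SE, edgeR adjusted p = 0.0075), while its ligand gene Il33 rose. The binding protein Il18bp (log2 -0.40), the inhibitory receptor Sigirr (0.15) and Il1f10 (-0.48), a further family cytokine, were not called.

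In LYS skin against IMQ skin no tested gene of the 60 was called by edgeR in the fit of 6 libraries. Here 12 of 15 processing genes and 14 of 16 response genes could be tested. For the receptors, at an unadjusted p under 0.05 there were 3 lower and 1 higher, against 15.9% and 19.3% of all genes tested. With all 9 libraries in the fit 3 were called lower and 1 higher, against 8.62% and 9.93% of all genes. DESeq2 called 2 lower and 1 higher, against 9.49% and 13.3%. Il1rl2 had 143, 119 and 111 CPM in the LYS libraries, all below the 199 to 216 CPM of the IMQ libraries (log2 -0.67 ± 0.13 SE, edgeR adjusted p = 0.059). Il1rl1 had 5.30, 9.49 and 11.2 CPM, all above the IMQ libraries (log2 1.65 ± 0.44 SE, edgeR adjusted p = 0.064). Il1rl2 and Il1rl1 were called by edgeR without LYS 1 (adjusted p = 0.0094 and 0.018) and without IMQ 1 (0.044 and 0.042). Markers of mast cells, which are known to express ST2, moved with Il1rl1. Their sum was 181 to 294 CPM in the control group, 69.4 to 104 in the IMQ group and 139 to 256 in the LYS group, and none was without counts in any group. Between the LYS and IMQ groups 0 of these 5 genes were called by edgeR on 6 libraries. With all 9 libraries 5 were called higher (9.93% of all genes), and 5 by DESeq2 (13.3% of all genes). This pattern was not particular to mast cells. Their median log2 difference between the LYS and IMQ groups was 1.32. It was 1.30 for fibroblast, 1.09 for endothelium, 1.59 for macrophage and 1.63 for adipocyte markers, with 5 of 5 higher in each list. The part of mast cells in the values of Il1rl1 was not tested. Il1rap differed by -0.69 on the log2 scale (edgeR adjusted p = 0.097) and was called without LYS 1 (-0.95, adjusted p = 0.016). Il1r2 differed by -0.83 (edgeR adjusted p = 0.14) and was called without IMQ 1 (-1.17, adjusted p = 0.041). The log2 differences of the other receptors and binders, with edgeR adjusted p in parentheses, were for Il1f10 -1.15 (0.098), for Il18rap -0.35 (0.49), for Il18r1 -0.09 (0.76), for Il18bp 0.26 (0.60) and for Sigirr 0.34 (0.28). Against the control group Il18r1, Il18rap and Il1rap were called higher in the LYS group and Il1f10 lower (log2 1.29, 2.76, 0.97 and -1.68, edgeR adjusted p = 0.021, 0.0031, 0.026 and 0.0070). The median of the list was 0.44 there and -0.35 against the IMQ group.

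**Figure D4:**
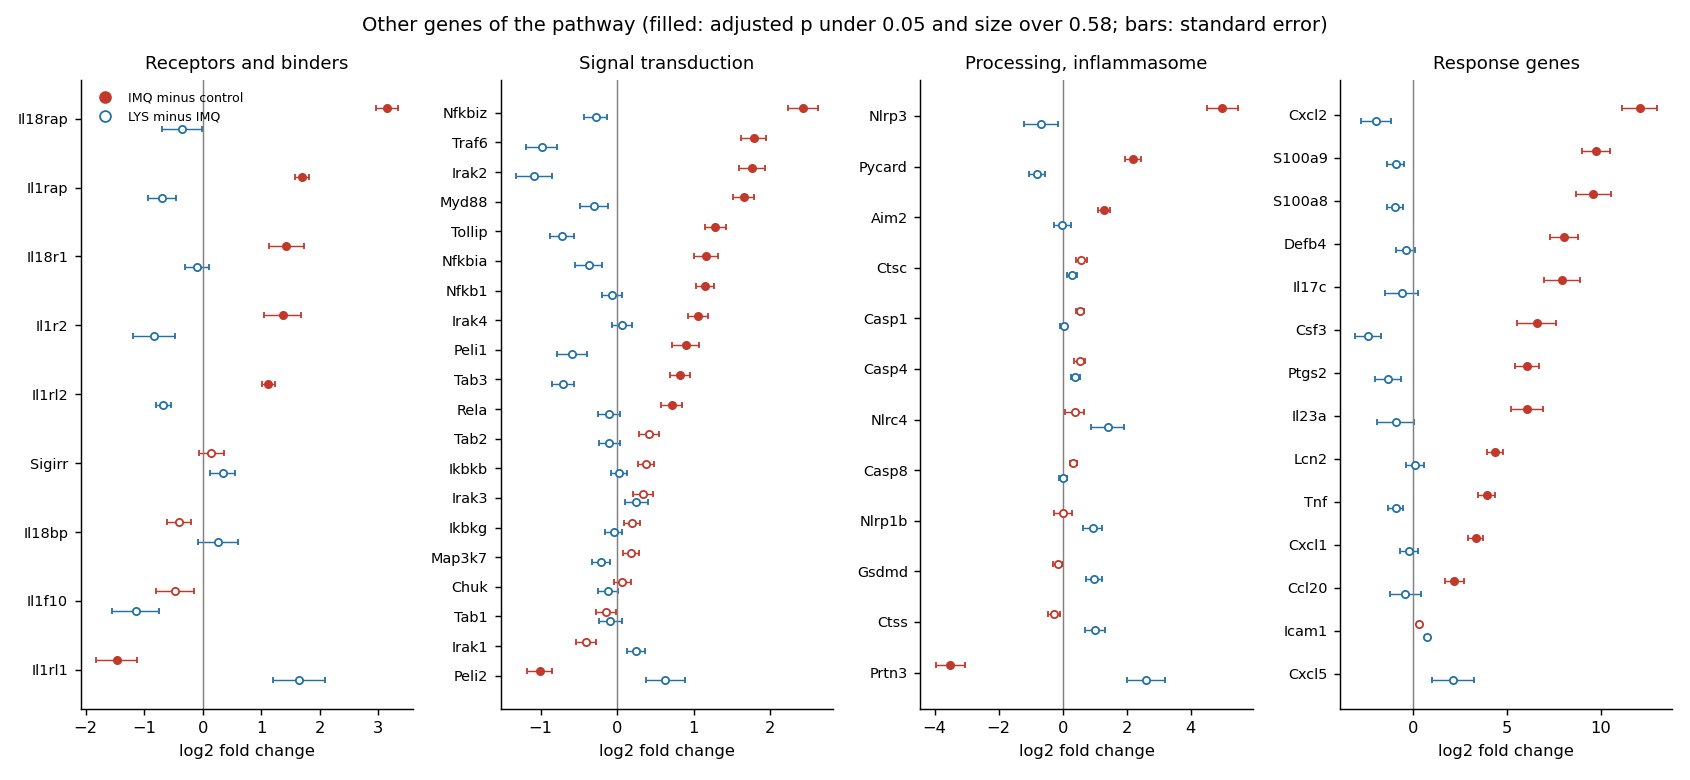
edgeR log2 fold changes (points, bars for standard errors) of the tested genes of the 4 pathway lists, for IMQ minus control (red) and LYS minus IMQ (blue), with filled points for genes called at an adjusted p under 0.05 and a size over 0.58. All blue points are open, and the red points reach 12.1 for Cxcl2, which had few reads in the controls, and -3.52 for Prtn3.

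Of 20 genes of signal transduction, 11 were called higher and 1 lower in IMQ skin against control skin (median log2 fold change 0.77). Of all genes tested there, 24.1% were called higher and 26.9% lower. Nfkbiz, whose product I kappa B zeta is induced by IL-1 and IL-36, had 30.8, 35.9 and 46.1 CPM in the controls and 167, 215 and 229.6 CPM after IMQ (log2 2.43 ± 0.19 SE, edgeR adjusted p = 4.2e-05). The ubiquitin ligase Traf6 (log2 1.79), the kinase Irak2 (1.76) and the adaptor Myd88 (1.65) also rose (edgeR adjusted p = 7.55e-05, 8.1e-05 and 5.1e-05). For LYS against IMQ 0 were called, with 5 lower and 1 higher at an unadjusted p under 0.05, against 15.9% and 19.3% of all genes. With all 9 libraries 5 were called lower (8.62% of all genes), and by DESeq2 5 lower (9.49% of all genes). Traf6 (log2 -0.99) and Irak2 (-1.09) had an edgeR adjusted p of 0.059 each and did not overlap, while Nfkbiz (-0.28, adjusted p = 0.23) and Myd88 (-0.30, adjusted p = 0.28) overlapped. Traf6 and Irak2 were called by edgeR without LYS 1 (adjusted p = 0.011 and 0.0080) and without IMQ 1 (0.041 and 0.044). Against the control group 6 genes were called higher in the LYS group, among them Nfkbiz (log2 2.09), Myd88 (1.30) and Traf6 (0.75). The medians were -0.11 for LYS against IMQ and 0.43 for LYS against control.

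Of the 15 genes of processing and the inflammasome, 12 could be tested, and 3 were called higher and 1 lower after IMQ (median log2 fold change 0.45). That is near the 24.1% called higher, and below the 26.9% called lower, among all genes tested. Leaving out IMQ 1 added Casp1 and Casp4, leaving out control 1 added Casp4 and Ctsc, and leaving out IMQ 3 added Ctsc, all higher. The sensor Nlrp3 had 1.55, 0.554 and 0.682 CPM in the controls and 15.5, 33.0 and 40.3 CPM after IMQ (log2 4.98 ± 0.48 SE, edgeR adjusted p = 9.6e-05). The adaptor Pycard (log2 2.19) and the DNA sensor Aim2 (1.29) rose too, and the neutrophil protease Prtn3 fell by 3.52 on the log2 scale (edgeR adjusted p = 3.6e-04). Casp1, the protease that cleaves the IL-1 beta and IL-18 precursors, had 26.7 to 29.7 CPM in the controls and 37.8 to 45.1 CPM after IMQ, a log2 difference of 0.53 (edgeR adjusted p = 0.0058) below the size required, and 0.60 without IMQ 1. For LYS against IMQ 0 were called, with 6 higher and 1 lower at an unadjusted p under 0.05, against 19.3% and 15.9% of all genes. With all 9 libraries 2 were called higher (9.93% of all genes). DESeq2 called 5 higher and 1 lower, against 13.3% and 9.49% of all genes. Prtn3 was 2.60 higher on the log2 scale (edgeR adjusted p = 0.059) and Pycard -0.80 (adjusted p = 0.077). Without LYS 1 edgeR called both (2.87, adjusted p = 0.014, and -1.04, adjusted p = 0.018). The difference in Nlrp3 (-0.67, standard error 0.53) was close to its error. Against the control group 7 were called higher in the LYS group, among them Nlrp3 (log2 4.27), Pycard (1.35) and Aim2 (1.22). The list medians were 0.35 for LYS against IMQ and 0.85 for LYS against control.

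Of 16 response genes of IL-1 and IL-36, 13 could be tested in IMQ skin against control skin, and 12 were called higher and 0 lower (13 higher at an unadjusted p under 0.05, and 13 by DESeq2). By edgeR 24.1% of all genes tested were called higher and 26.9% lower. The list's median log2 fold change was 6.06. Some of these genes had almost no reads in the controls, for example Cxcl2, Il17c and Csf3 (means of 0.128, 0.0154 and 0.0487 CPM). They passed edgeR's filter on low counts only through the IMQ libraries, and so could only be called higher. The count and the median of this list therefore partly reflect the filter, and their distance from the shares of all genes is not a test. Cxcl2, a chemokine for neutrophils, had 0.290, 0.0462 and 0.0487 CPM in the controls and 165, 805 and 786 CPM after IMQ (log2 12.08 ± 0.93 SE, edgeR adjusted p = 3.8e-05). Control 2 and control 3 were below the CPM of 3 counts (0.139 and 0.146), and control 1 was not far above it (0.145). The size of the fold changes of Cxcl2 against the controls thus rests on few reads. Cxcl2 had 257, 136 and 33.5 CPM in LYS 1 to LYS 3, and as for Il1b, IMQ 1 was the lowest IMQ library and was below LYS 1. S100a9 and S100a8, alarmins that are also in the neutrophil list, rose by 9.75 and 9.60 on the log2 scale (edgeR adjusted p = 3.7e-05 and 9.7e-05). Il17c, an epithelial cytokine, had at most 1 count in any control library. Counted against a floor of 3 counts in a library, its mean was at least 38.4-fold higher in the IMQ group. In the LYS group this bound on the mean was 24.1-fold. The LYS libraries ranged from 0.459 to 6.84 CPM, so the bound does not hold for each of them. For LYS against IMQ 0 of 14 tested were called, with 2 lower and 1 higher at an unadjusted p under 0.05. Of all genes tested 15.9% were lower and 19.3% higher, so these counts do not exceed those shares. With all 9 libraries 1 was called lower and 1 higher (8.62% and 9.93% of all genes). DESeq2 called 2 lower and 1 higher (9.49% and 13.3% of all genes). The differences were -1.99 for Cxcl2 ± 0.81 SE (edgeR adjusted p = 0.13), -0.92 for S100a9 (0.19), -0.97 for S100a8 (0.16) and -0.62 for Il17c (0.63). Against the control group 10 of 11 tested genes were called higher in the LYS group, among them Cxcl2 (log2 10.06), S100a9 (8.80) and S100a8 (8.60). The limit set by the filter applies to this count too. The list medians were -0.77 for LYS against IMQ and 4.41 for LYS against control.

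The pathway calls of the LYS group against the control group, where 15.1% of all genes tested were called higher and 12.9% lower, rested on single libraries more than those of the members. Il1rap lost its call without control 1, control 2, control 3 or LYS 2 (edgeR adjusted p = 0.090, 0.080, 0.061 and 0.071), and Il18r1 without control 1 or LYS 2 (0.069 and 0.076). Traf6 lost its call without control 1 (0.054) and without LYS 1, where its log2 fold change was 0.57. Pycard and Aim2 lost theirs without control 1 (0.068 and 0.052), control 2 (0.058 and 0.068) and LYS 2 (0.058 and 0.055). Nlrc4, an inflammasome sensor, and Gsdmd, the pore-forming gasdermin D, were among the 7 processing genes called higher and lost their call without any library but LYS 1 (edgeR adjusted p = 0.066 to 0.106 and 0.063 to 0.122). Ctsc, which encodes cathepsin C, lost its call without control 2, control 3 or LYS 2 (0.068, 0.065 and 0.067), and Csf3, a granulocyte growth factor, without control 1 (0.051). Nlrc4, Gsdmd, Ctsc, Csf3 and Casp4 are named here after their values were seen. No member lost or gained a call between the LYS and control groups when any library was left out.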

How the data were processed

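RNA-seq of back skin was deposited as 1 table of gene counts and FPKM for 9 libraries, and no column of values was without a sample. The deposited counts are whole reads per gene, made by the authors with HISAT2 and HTSeq 0.13.5 on GRCm38 per the submitters' processing notes. The strand setting and the version of HISAT2 are not given in the sources used here. The deposited FPKM values were computed by the authors as counts per length and per total, and this was checked against the counts. The quasi-likelihood test of edgeR 4.0.16 (R 4.3.3) was applied after its default filter on low counts and TMM scaling, with Benjamini-Hochberg adjustment over all genes tested, on the 6 libraries of each comparison. Alternatives were DESeq2 1.42.0, limma 3.58.1 on log2(FPKM + 1), a joint fit of all libraries, other scaling, filters and fold thresholds, and each library left out. Figures used Python 3.11.15, pandas 2.3.3 and matplotlib 3.10.9. Scripts were tested on simulated data. Named genes were the 10 members, every receptor and binding protein, the 4 genes of each other pathway list with the largest log2 fold change in size for IMQ against control (among genes called there, with a mean of at least 1 CPM and no overlap), Myd88, Nfkbiz and Casp1, and the 3 genes most like Il1b, Il1f6, Il1rn and Il33. The members, gene lists and marker lists were chosen with earlier results of these data known. Libraries of a group differed by more than sampling noise (chi-square per degree of freedom 16.9 or more), so none was counted as a duplicate. Floors (3 counts per library) cover counting error only. Standard errors were derived from edgeR's test statistic, which includes the spread between libraries, and SDs are between libraries.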

Additional observations from a re-analysis of the deposited data

How the results depend on the processing

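Each group had 3 libraries, and the dose of LYS and the separateness of the mice are not in the labels. Cleaved or secreted protein was not measured. All 160 alternative values of the members' log2 fold changes for IMQ against control kept their direction and their call. For LYS against IMQ, 129 did and 31 gained a call. The members called higher and lower, 0 and 0 by edgeR, were 1 and 6 by DESeq2, 1 and 6 with all 9 libraries in the fit, and 1 and 5 without a filter on low counts. The pathway genes, 0 and 0, were 7 and 10, 4 and 9, and 5 and 7. With each library left out, members ranged from 0 to 1 higher and 0 to 6 lower and pathway genes from 0 to 8 higher and 0 to 9 lower. Without IMQ 1 these were 1, 3, 2 and 9, and without LYS 1 they were 1, 6, 8 and 9. Calls rose over the whole table as well, to 1080 higher and 797 lower without IMQ 1 and 2370 and 1892 without LYS 1. The main fit of this comparison tested 15460 genes. Of all genes tested, DESeq2 called 13.3% higher and 9.49% lower, and the fit of all 9 libraries 9.93% and 8.62%. For LYS against control, 0 members were lower at a log2 size over 1, since Il1r1 was at -0.73. There 2 pathway genes were lower by DESeq2 and without a filter, and 1 to 2 with each library left out. Il18, not called, changed sign to -0.012 without scaling, -0.072 by limma on log2(FPKM + 1), -0.077 with 0.1 added in place of 1, and ranged from -0.066 (without LYS 3) to 0.40 with each library left out. Without scaling the median of all genes was -0.51 for IMQ against control, 0.29 for LYS against IMQ and -0.15 for LYS against control. As ratios of counts, Il1rn over Il1a plus Il1b was 4.59, 0.363 and 0.426 in the control, IMQ and LYS groups, and Il1f5 over the IL-36 agonists 1.26, 1.09 and 0.781, because these do not divide by gene length. Over all genes, LYS against IMQ gave 0 calls by edgeR, with 2978 higher and 2457 lower at an unadjusted p under 0.05, and 1951 and 1394 by DESeq2, 1627 and 1413 with all 9 libraries, 1453 and 966 without a filter, 1080 and 797 without IMQ 1 and 2370 and 1892 without LYS 1. Libraries with the same number did not deviate together (correlations of -0.46 to 0.20), so the numbers were not taken as pairs. With the replicate block the members called higher and lower were 9 and 1, 0 and 0, and 8 and 1 in the 3 comparisons, and the pathway genes 32 and 3, 0 and 0, and 21 and 1.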
